A study of Arabidopsis thaliana with 24 samples.

Results

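Metallothioneins are small cysteine-rich proteins that bind copper, zinc and other metal ions, and in plants they are known for buffering copper and for handling metals in leaves, roots and senescing tissue. The family members described here are MT1A (AT1G07600), MT1C (AT1G07610), MT2A (AT3G09390), MT2B (AT5G02380) and MT3 (AT3G15353). They were taken by gene identifier, 5 of the 28775 genes in the deposited count tables. MT1 proteins are known mainly from roots and the vasculature, and MT2 and MT3 proteins from leaf mesophyll, phloem and young tissue. NAD capping, the property the series measured, is the presence of nicotinamide adenine dinucleotide at the 5′ end of an RNA in place of the usual cap, and DXO1 is an enzyme known to remove it.

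The 24 libraries fell into 12 groups with 2 replicates each. Plants of Arabidopsis thaliana were dxo1 mutants with ABA treatment, dxo1 without it (NT), wild-type Col-0 with ABA, or Col-0 NT. All were labelled as seedlings harvested at 12 days. ABA (abscisic acid) is a hormone known from drought stress and maturing seeds, and the labels give neither its dose nor the dxo1 allele. Each combination was sequenced as NAD-capped RNA, as GMUCT libraries, which hold uncapped and cleaved transcripts, and as total RNA. Nothing in the labels says that replicates came from separate cultures, so p-values measure only the spread between these samples, which may be technical. The labels also name bud tissue, but the floral identity genes AP1, AP3 and AG had 0 to 6 reads in any GMUCT library, PI had 1 to 10 and SEP3 had 4 to 56, against 27223 to 68551 reads of the leaf gene RBCS1A. The 5 floral genes together had 10 reads in both dxo1 ABA libraries and 10 to 15 in Col-0 ABA. They had 61 to 73 in dxo1 NT and 59 to 70 in Col-0 NT. These reads are not scaled for depth, and in each genotype the GMUCT libraries with ABA held fewer gene counts than those in NT. The part of the floral genes in the results was not tested.

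GMUCT libraries held 5.79 to 13.9 M (mega) gene counts, with 0.751 to 1.53 M in the NAD libraries and 0.878 to 2.03 M in total RNA. Nuclear protein-coding genes took 95.7% to 96.7% of these counts in GMUCT, but 2.17% to 17.7% in NAD and 12.7% to 26.3% in total RNA, so the members rest on far fewer reads in the last 2 assays. The library Col-0 ABA NAD replicate 1 stood apart and held 33159 nuclear protein-coding counts, the fewest of all. The organelle gene ATMG01390 took 85.1% of its gene counts and 43.9% to 60.8% in the other NAD libraries. In total RNA this gene took 4.06% to 7.32%, and in GMUCT 0.252% to 1.08%. DXO1 (AT4G17620) kept reads in all libraries, but scaled for depth its GMUCT level was lower in dxo1, at 17.3 ± 2.29 CPM in dxo1 ABA, against 31.4 ± 1.25 in Col-0 ABA, and at 19.8 ± 2.41 CPM in dxo1 NT, against 27.9 ± 3.40 in Col-0 NT (SD, n = 2; CPM are counts per M of a library total adjusted by TMM, a normalization that equalizes the bulk of genes between libraries).

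The coding sequences show how closely the members are related. All sequences and positions are those of RefSeq for the TAIR10.1 assembly. MT1A and MT1C have coding sequences of 138 bases that differ at 7 bases (94.9% identity), given here 5′ to 3′ with the differing bases in capitals.
MT1A: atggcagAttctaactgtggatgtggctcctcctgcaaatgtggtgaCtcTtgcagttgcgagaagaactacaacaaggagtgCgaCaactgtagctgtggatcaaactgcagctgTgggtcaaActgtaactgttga
MT1C: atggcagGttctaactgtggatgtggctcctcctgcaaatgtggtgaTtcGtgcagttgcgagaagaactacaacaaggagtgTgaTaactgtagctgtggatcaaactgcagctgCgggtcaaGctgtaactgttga

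Both MT1 sequences hold 13 cysteine codons among 45. MT2A, MT2B and MT3 hold 14 of 81, 14 of 77 and 12 of 69, and their cysteine codons are in capitals here, because the spacing of cysteines separates the metallothionein types.
MT2A: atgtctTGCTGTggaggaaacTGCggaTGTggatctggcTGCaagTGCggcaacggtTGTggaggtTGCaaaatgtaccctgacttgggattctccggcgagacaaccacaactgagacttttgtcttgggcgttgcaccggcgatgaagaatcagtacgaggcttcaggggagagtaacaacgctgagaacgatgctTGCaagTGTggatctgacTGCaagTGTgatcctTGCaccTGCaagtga
MT2B: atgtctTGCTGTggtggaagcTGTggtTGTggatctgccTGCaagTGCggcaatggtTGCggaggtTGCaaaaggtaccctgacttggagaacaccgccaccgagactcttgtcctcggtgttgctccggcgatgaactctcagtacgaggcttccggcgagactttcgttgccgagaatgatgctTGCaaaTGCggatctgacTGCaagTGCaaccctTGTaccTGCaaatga
MT3: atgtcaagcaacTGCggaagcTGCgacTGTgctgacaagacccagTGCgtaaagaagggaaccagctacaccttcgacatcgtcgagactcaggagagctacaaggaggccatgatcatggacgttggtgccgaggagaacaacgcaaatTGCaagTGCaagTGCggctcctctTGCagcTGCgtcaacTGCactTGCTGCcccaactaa

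In every member the cysteine codons lie in a cluster near each end of the reading frame, with a stretch that holds none between them. MT2A and MT2B were 79.7% identical over their coding alignment. Reads of 50 nt can still separate the members: each of the 479 within-exon stretches of 50 bases in MT1C, 865 in MT2A, 473 in MT2B and 508 in MT3 occurs once in the genome.

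MT1A had 0 counts in all 24 libraries, and this zero could not be read as absence of its transcript. A count of 0 allows up to 3 assigned counts, or 0.368 per M gene counts over the NAD libraries, 0.0379 over GMUCT and 0.291 over total RNA. MT1A lies on chromosome 1 at 2338904 to 2339321, minus strand. All 138 of its annotated exon bases (100%) lie inside exons of AT1G07590, a gene for a tetratricopeptide repeat-like protein on the same strand at 2336477 to 2339391. All 40 of its within-exon 50-base stretches, although found once in the genome, fall inside those exons too, so reads of MT1A and of AT1G07590 cannot be told apart by position. How such shared positions were counted, and on which annotation release, is not given in the sources used here. Reads listed as ambiguous between genes were 0.378% to 0.517% in GMUCT, 0.00506% to 0.0102% in NAD and 0.00414% to 0.0130% in total RNA.

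**Figure D1:**
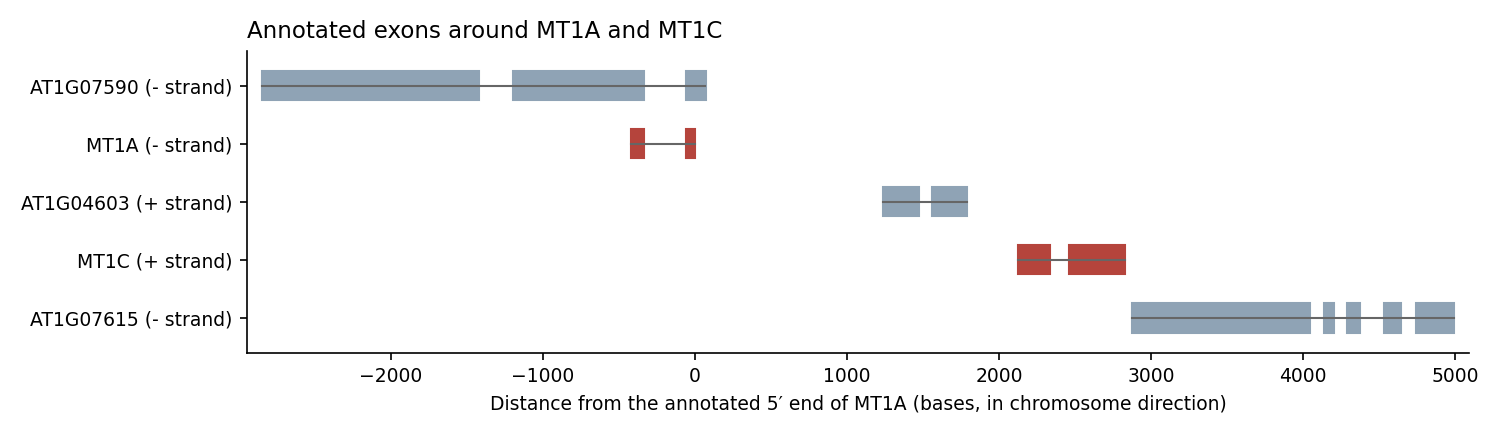
Annotated exons (boxes) of MT1A, MT1C and their neighbours on chromosome 1, with the horizontal axis giving the distance in bases from the annotated 5′ end of MT1A and members in red. Both exons of MT1A sit within exons of AT1G07590 on the same strand, while MT1C, on the other strand, overlaps no neighbour.

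AT1G07590 itself was well counted. Its values are given because every MT1A exon position belongs to it as well, but whether they include MT1A reads is not known. In GMUCT AT1G07590 had 3068 and 3206 counts in dxo1 ABA, 6655 and 5602 in dxo1 NT, 2531 and 1905 in Col-0 ABA, and 9699 and 7826 in Col-0 NT. Scaled for depth it was lower in dxo1 than in Col-0 under NT by a log2 fold change of -1.07 ± 0.16 (SE, edgeR quasi-likelihood test, adjusted p = 0.00017) and lower with ABA than in NT in Col-0 by -1.07 ± 0.16 (edgeR adjusted p = 6.34e-05). Its NAD over total RNA difference was 1.15 ± 0.36 in dxo1 ABA (edgeR adjusted p = 0.0407), 1.32 ± 0.37 in dxo1 NT (edgeR adjusted p = 0.0175), 0.29 ± 0.37 in Col-0 ABA (edgeR adjusted p = 0.708) and 0.43 ± 0.36 in Col-0 NT (edgeR adjusted p = 0.586).

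The other 4 members lie apart from such overlaps. MT1C is on chromosome 1 at 2341447 to 2342148 (plus strand, 577 exon bases), MT2A on chromosome 3 at 2889406 to 2890574 (minus strand, 963), MT2B on chromosome 5 at 506498 to 507244 (minus strand, 571) and MT3 on chromosome 3 at 5180642 to 5181586 (minus strand, 654). MT3 shares 24 exon bases with AT3G15352 and 70 with the long non-coding RNA gene AT3G03105, both on the opposite strand, and the reads are labelled strand-specific.

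Per kilobase of exon, MT2B was the highest member in total RNA and NAD libraries, and MT3 or MT2A in GMUCT. In total RNA the mean level of MT2B was 131 ± 20.2 CPM per kb in dxo1 ABA, 121 ± 15.5 in dxo1 NT, 179 ± 23.2 in Col-0 ABA and 210 ± 5.48 in Col-0 NT (SD, n = 2). MT3 followed in NT, at 112 ± 39.6 CPM per kb in dxo1 and 101 ± 0.393 in Col-0. In dxo1 NT the difference between MT2B and MT3 was smaller than the spread of MT3. MT1C and MT2A averaged between 33.0 and 85.3 CPM per kb in total RNA over the 4 conditions. In GMUCT libraries MT3 averaged 1905 ± 689 CPM per kb in dxo1 ABA, 2531 ± 183 in dxo1 NT, 2357 ± 34.4 in Col-0 ABA and 4873 ± 506 in Col-0 NT. MT2A averaged 976 ± 142, 1048 ± 207, 2846 ± 132 and 2164 ± 85.4 CPM per kb in the same conditions, above MT3 in Col-0 ABA only.

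As a share of all nuclear protein-coding counts the family took more of NAD than of total RNA. It made up 0.437% to 0.585% of these counts in the 8 NAD libraries, 0.250% to 0.628% in GMUCT and 0.124% to 0.166% in total RNA. On this scale the NAD and total RNA libraries did not overlap, and how many other families separate likewise was not counted. Of all gene counts, the family took 0.0095% in Col-0 ABA NAD replicate 1, below the 0.0162% to 0.0393% of the total RNA libraries. The other NAD libraries held 0.0570% to 0.104%. Within the family, MT2B gave 61.9% ± 1.49 of counts in dxo1 ABA NAD libraries, against 36.9% ± 6.59 in total RNA (SD, n = 2). In dxo1 NT it gave 52.2% ± 3.34 in NAD, against 31.4% ± 3.24 in total RNA. In Col-0 ABA the MT2B share was 60.1% ± 6.91 in NAD and 45.0% ± 0.161 in total RNA, and in Col-0 NT 49.9% ± 3.72 and 42.6% ± 2.02. In GMUCT libraries MT2B gave 5.73% to 8.67% of the family's counts by group mean.

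The comparison of NAD with total RNA asked which transcripts were over-represented after capture of NAD-capped RNA. MT2B was the member with the largest difference in dxo1 ABA, dxo1 NT and Col-0 ABA. It stood at 404 and 475 CPM in dxo1 ABA NAD libraries, against 82.9 and 66.5 CPM in dxo1 ABA total RNA. In dxo1 NT it stood at 340 and 404 CPM in NAD, against 63.0 and 75.6 in total RNA. In Col-0 ABA the levels were 267 and 441 CPM in NAD, against 112 and 93.1 in total RNA. All NAD libraries lay above all total RNA libraries, and the same held in Col-0 NT, with 333 and 379 CPM in NAD, against 122 and 118 in total RNA.

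The log2 fold change of MT2B in NAD over total RNA was 2.55 ± 0.36 in dxo1 ABA (SE, edgeR quasi-likelihood test, adjusted p = 0.000159) and 2.42 ± 0.36 in dxo1 NT (edgeR adjusted p = 9.92e-05). In Col-0 it was 1.80 ± 0.36 with ABA (edgeR adjusted p = 0.00527) and 1.57 ± 0.36 in NT (edgeR adjusted p = 0.00924). Both dxo1 calls held without any 1 library, with adjusted p between 0.000263 and 0.00866 in ABA. The Col-0 NT call was lost without any of its 4 libraries (adjusted p between 0.0592 and 0.171), and the Col-0 ABA call without NAD replicate 2 or either total RNA library (adjusted p between 0.0745 and 0.187), while without the outlying Col-0 ABA NAD replicate 1 it stood at 2.09 (adjusted p = 0.00329).

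MT3 was the other member called higher in NAD in all 4 conditions. Its levels were 105 and 124 CPM in dxo1 ABA NAD, against 42.7 and 32.0 CPM in total RNA. In dxo1 NT they were 153 and 152 CPM in NAD, against 91.3 and 54.6 in total RNA. In Col-0 ABA they were 120 and 111 CPM in NAD, against 47.3 and 31.0 in total RNA. The groups did not overlap in these conditions or in Col-0 NT, where MT3 stood at 236 and 182 CPM in NAD, against 66.0 and 65.6 in total RNA.

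The log2 fold change of MT3 was 1.61 ± 0.35 in dxo1 ABA (edgeR adjusted p = 0.00464), 1.06 ± 0.34 in dxo1 NT (edgeR adjusted p = 0.0407), 1.55 ± 0.37 in Col-0 ABA (edgeR adjusted p = 0.0234) and 1.66 ± 0.35 in Col-0 NT (edgeR adjusted p = 0.00508). The dxo1 NT and Col-0 ABA calls were lost without any of their 4 libraries (adjusted p between 0.0654 and 0.396, and between 0.0639 and 0.321). The dxo1 ABA call was lost without NAD replicate 2 (adjusted p = 0.0867) or total RNA replicate 2 (adjusted p = 0.0862), and the Col-0 NT call without NAD replicate 1 (adjusted p = 0.0896) or without 1 of the total RNA libraries (adjusted p = 0.112 for replicate 1 and 0.066 for replicate 2).

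**Figure D2:**
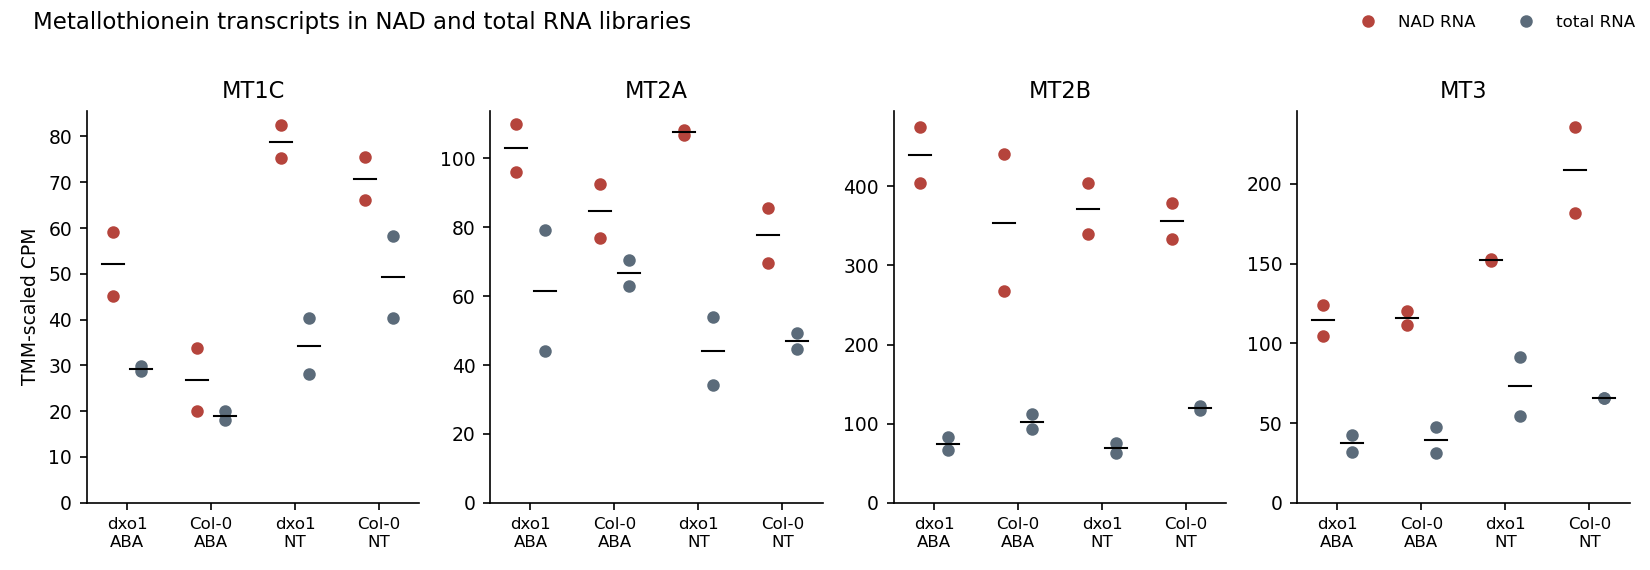
TMM-scaled CPM (vertical axes from 0, one panel for each member) of MT1C, MT2A, MT2B and MT3 in NAD libraries (red) and total RNA libraries (grey) for dxo1 and Col-0 with ABA and in NT, where each point is 1 library and bars are means of 2. MT2B shows the widest gap, with 267 to 475 CPM in NAD libraries, against 63.0 to 122 in total RNA.

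MT1C and MT2A were called higher in NAD in dxo1 NT alone among the 4 tests. Both NAD libraries still lay above both total RNA libraries for MT2A in all 4 conditions, and for MT1C in all but Col-0 ABA. MT1C stood at 82.4 and 75.3 CPM in dxo1 NT NAD libraries, against 28.2 and 40.4 in total RNA, a log2 fold change of 1.21 ± 0.34 (edgeR adjusted p = 0.0185). MT2A stood at 107 and 108 CPM in dxo1 NT NAD, against 34.2 and 53.9 in total RNA, a log2 fold change of 1.29 ± 0.35 (edgeR adjusted p = 0.0147). Elsewhere MT1C had log2 differences of 0.83 ± 0.34 in dxo1 ABA, 0.59 ± 0.41 in Col-0 ABA and 0.54 ± 0.34 in Col-0 NT, and MT2A of 0.75 ± 0.34, 0.36 ± 0.36 and 0.71 ± 0.36, with edgeR adjusted p between 0.117 and 0.621. The MT1C call in dxo1 NT was lost without any of the 4 libraries (adjusted p between 0.0698 and 0.305), and the MT2A call without NAD replicate 1 (adjusted p = 0.116), NAD replicate 2 (adjusted p = 0.131) or total RNA replicate 1 (adjusted p = 0.28).

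In all, 2 of the 4 members tested were called higher in dxo1 ABA, 4 in dxo1 NT, 2 in Col-0 ABA and 2 in Col-0 NT, and none lower. Over the 5475 genes tested, 5.37%, 7.03%, 1.17% and 1.52% were called higher in the same conditions, and 11.4%, 13.5%, 2.92% and 4.27% in either direction. Groups without overlap are common with 2 libraries each: both NAD libraries lay above both total RNA libraries for 27.8%, 31.4%, 18.1% and 24.9% of genes tested. The median log2 difference of the 4 members was 1.22, 1.25, 1.07 and 1.14, beside -0.05, 0.01, -0.11 and 0.03 over all genes tested. Scaling by library size alone put the median gene at 0.21 in dxo1 ABA, 0.07 in dxo1 NT, -1.34 in Col-0 ABA and -0.26 in Col-0 NT. No member then passed in any condition, and MT1C and MT2A changed sign in Col-0 ABA. MT2B kept its size in dxo1 with a larger SE than by TMM, at 2.78 ± 0.863 in ABA (edgeR adjusted p = 0.0973) and 2.50 ± 0.855 in NT (edgeR adjusted p = 0.117). In Col-0 it stood at 0.80 ± 0.816 in ABA and 1.26 ± 0.822 in NT. Without the low-count filter the calls of MT1C, MT2A and MT3 in dxo1 NT and those of MT2B and MT3 in Col-0 ABA were lost (adjusted p between 0.0546 and 0.34), and that of MT3 in dxo1 NT was also lost with organelle genes removed (adjusted p = 0.0863).

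Whether the NAD over total RNA ratio itself differed between groups was tested as one contrast, and no member passed. For MT2B the ratio was 0.76 ± 0.49 higher on the log2 scale in dxo1 than in Col-0 with ABA (edgeR adjusted p = 0.893) and 0.86 ± 0.49 higher in NT (edgeR adjusted p = 0.641). For MT3 the same differences were 0.06 ± 0.50 and -0.61 ± 0.49. For ABA over NT the 4 members lay between -0.55 and 0.55 in dxo1 and between -0.36 and 0.23 in Col-0. Calls were rare in these contrasts: edgeR called 0 genes for dxo1 over Col-0 with ABA, 1 gene (0.0183%) for the same in NT, 2 genes (0.0365%) for ABA in dxo1 and 0 for ABA in Col-0, with 299, 506, 208 and 468 genes at an unadjusted p under 0.05. A call in dxo1 NT and none in Col-0 NT for MT1C and MT2A is therefore not shown to be a difference between genotypes.

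**Figure D3:**
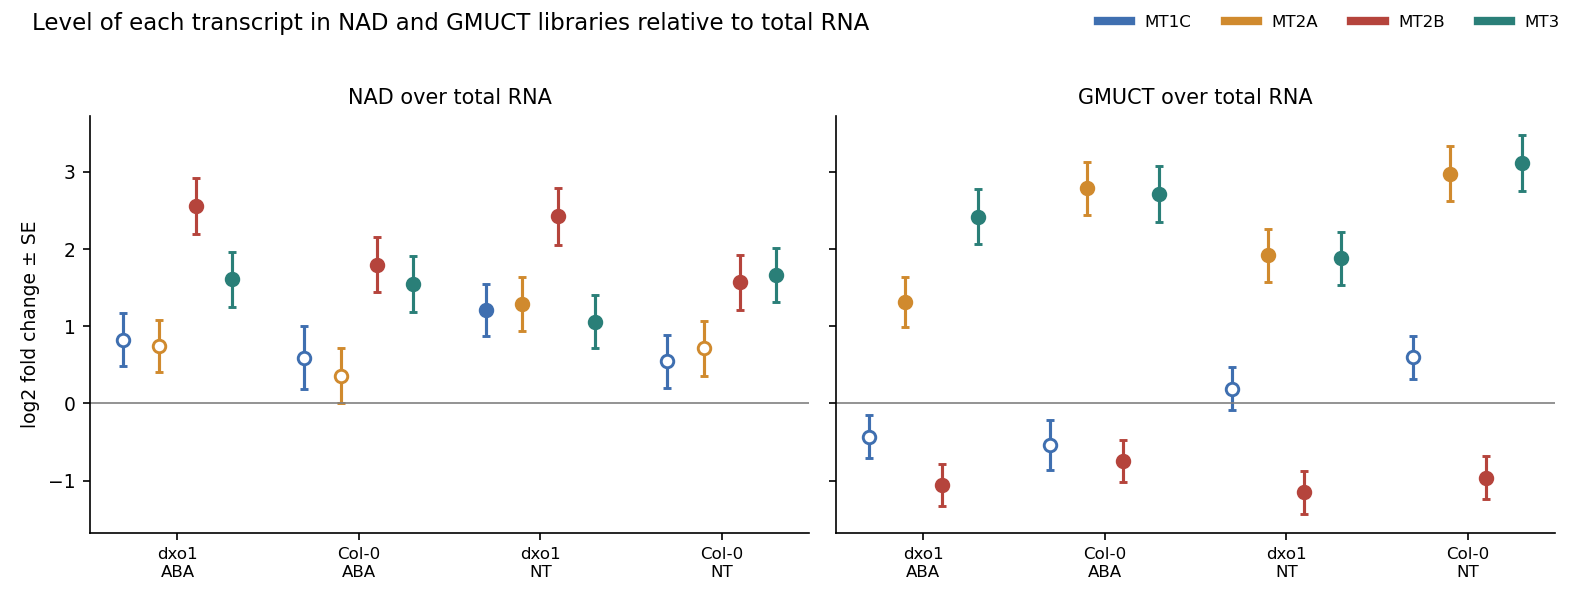
Log2 fold change (vertical axis, ± SE) of MT1C, MT2A, MT2B and MT3 in NAD over total RNA (left) and GMUCT over total RNA (right) in dxo1 and Col-0 with ABA and in NT, with filled points for an edgeR adjusted p below 0.05. MT2B is positive in NAD, from 1.57 to 2.55, and negative in GMUCT, from -1.15 to -0.74, while MT3 is positive in both.

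GMUCT libraries were set against total RNA to ask which transcripts were over-represented among uncapped and cleaved RNA. MT2A and MT3 were called higher in GMUCT in all 4 conditions, and MT2B lower. The log2 difference of MT2A was 1.31 in dxo1 ABA, 1.92 in dxo1 NT, 2.79 in Col-0 ABA and 2.98 in Col-0 NT, and that of MT3 was 2.42, 1.88, 2.71 and 3.12. MT2B stood at -1.06, -1.15, -0.74 and -0.96, and MT1C at -0.43, 0.19, -0.54 and 0.60 with no call, although in a fit of the Col-0 ABA groups alone MT1C was called lower (-0.65, adjusted p = 0.0355). Of 17930 genes tested, 30.5%, 30.2%, 30% and 27.4% were called in either direction in the same order, and the median gene lay at 0.26, 0.42, 0.36 and 0.51.

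The calls of MT2A and MT3 held without any 1 library in each condition. That of MT2B in Col-0 ABA was lost without any of the 4 libraries (adjusted p between 0.0682 and 0.349), in Col-0 NT without total RNA replicate 1 (-0.79, adjusted p = 0.148) and in dxo1 ABA without GMUCT replicate 1 (-0.82, adjusted p = 0.0675). The scale of this comparison rests on the normalization: by library size alone the median gene moved to between 2.51 and 2.97, and MT2B turned positive, at 1.52 in dxo1 ABA, 1.38 in dxo1 NT, 1.43 in Col-0 ABA and 1.35 in Col-0 NT, which is still below that median in each. On that scale MT2B was called higher in all 4 conditions (adjusted p between 0.00119 and 0.00472), the opposite of its call by TMM, and MT1C was called higher too, at 2.19, 2.76, 1.63 and 2.95. By that scaling 16046 genes were higher and 256 lower in dxo1 ABA, for example, against 3183 and 2277 by TMM. Without the low-count filter the MT2B call in Col-0 ABA was lost (-0.67, adjusted p = 0.0869).

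Among GMUCT libraries alone, which are the deepest, genotype and ABA were compared next. In bulk samples fewer cells of a type and less RNA per cell cannot be told apart. All 4 counted members were lower in dxo1 than in Col-0 under NT. MT3 had 1740 and 1570 CPM in dxo1 NT, against 3421 and 2953 in Col-0 NT. MT2A had 1149 and 868 CPM in dxo1 NT, against 2026 and 2142 in Col-0 NT. MT2B had 189 and 192 CPM in dxo1 NT, against 350 and 340 in Col-0 NT. MT1C had 284 and 191 CPM in dxo1 NT, against 375 and 431 in Col-0 NT, and for no member did the groups overlap, as for 63.7% of all genes tested (31.3% with both dxo1 libraries lower).

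The log2 fold changes of dxo1 over Col-0 in NT were -1.05 ± 0.17 for MT2A (edgeR adjusted p = 0.000363), -0.95 ± 0.20 for MT3 (edgeR adjusted p = 0.00255), -0.86 ± 0.18 for MT2B (edgeR adjusted p = 0.00213) and -0.76 ± 0.18 for MT1C (edgeR adjusted p = 0.00565). Of 19644 genes tested, 20.5% were called in either direction and 10.4% lower. The median of the 4 members was -0.90, beside 0.01 for all genes. By library size alone the median gene lay at 0.17, with 3475 genes higher and 1301 lower, against 1981 and 2037 by TMM, and all 4 members were still called lower. The MT1C call was lost without Col-0 NT replicate 2 (-0.66, adjusted p = 0.1) or dxo1 NT replicate 2 (-0.50, adjusted p = 0.0966).

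**Figure D4:**
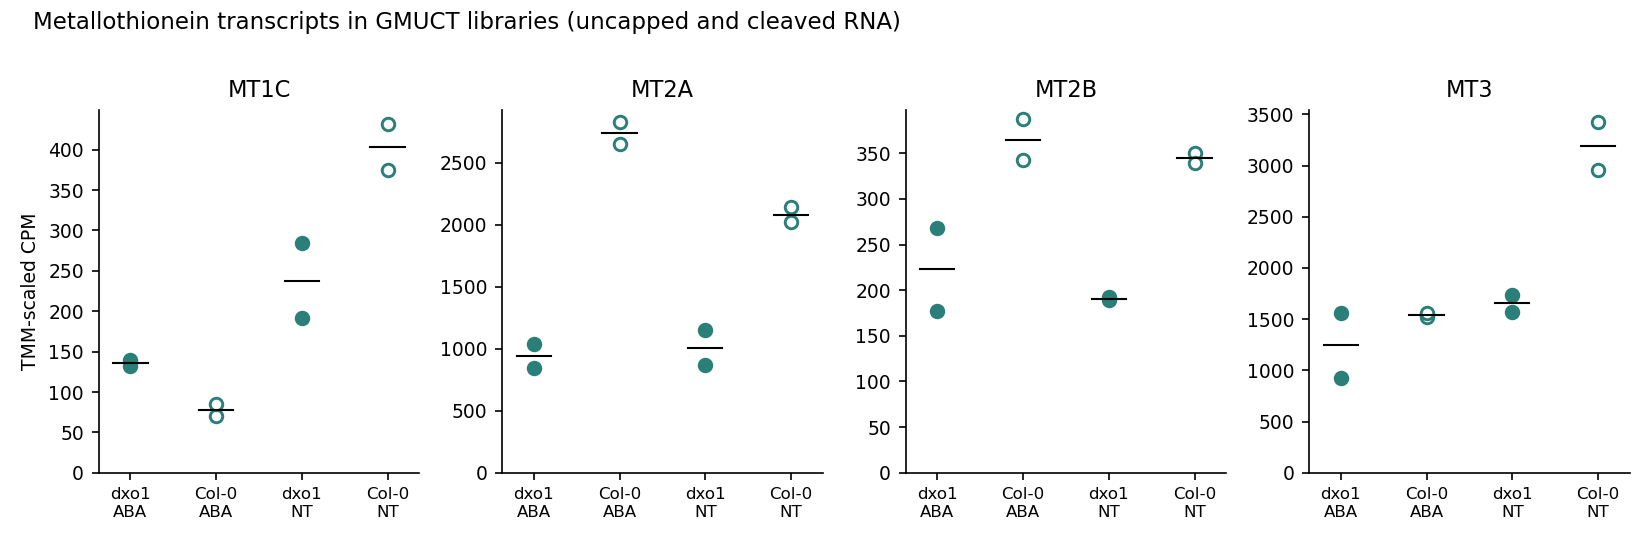
TMM-scaled CPM (vertical axes from 0, one panel for each member) of MT1C, MT2A, MT2B and MT3 in GMUCT libraries of dxo1 (filled) and Col-0 (open) with ABA and in NT, where each point is 1 library and bars are means of 2. In NT the dxo1 libraries lie below the Col-0 libraries in every panel, and with ABA those of MT1C lie above them.

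With ABA the members parted. MT2A had 1037 and 843 CPM in dxo1 ABA, against 2830 and 2650 in Col-0 ABA, a log2 fold change of -1.54 ± 0.18 (edgeR adjusted p = 2.52e-06). MT2B had 178 and 268 CPM in dxo1 ABA, against 387 and 343 in Col-0 ABA, a log2 fold change of -0.71 ± 0.18 (edgeR adjusted p = 0.00486). MT1C went the other way, with 139 and 132 CPM in dxo1 ABA, against 69.8 and 85.0 in Col-0 ABA, a log2 fold change of 0.81 ± 0.19 (edgeR adjusted p = 0.00288). MT3 had 927 and 1565 CPM in dxo1 ABA, against 1526 and 1558 in Col-0 ABA, groups that overlap, and its log2 fold change of -0.31 ± 0.20 did not pass (edgeR adjusted p = 0.257).

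Thus 1 member was higher and 2 were lower, while 30.7% of genes tested were called in either direction (2917 higher and 3108 lower, or 5642 and 1907 by library size alone). The 2 dxo1 ABA libraries differed in MT3, and without replicate 2 its log2 fold change was -0.73 (adjusted p = 0.00325), without replicate 1 it was 0.025 (adjusted p = 0.932). The MT2B call was lost without dxo1 ABA replicate 1 (-0.44, adjusted p = 0.053) or Col-0 ABA replicate 1 (-0.61, adjusted p = 0.063), and with scaling by library size alone (-0.44, adjusted p = 0.0583). The MT1C call was lost without Col-0 ABA replicate 1 (0.68, adjusted p = 0.0597).

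With ABA in Col-0, MT1C and MT3 were called lower, while MT2A and MT2B had no call, and differences between members were not tested. In Col-0, MT1C had 69.8 and 85.0 CPM with ABA, against 375 and 431 in NT, a log2 fold change of -2.38 ± 0.19 (edgeR adjusted p = 1.39e-08). MT3 had 1526 and 1558 CPM with ABA, against 3421 and 2953 in NT, a log2 fold change of -1.05 ± 0.20 (edgeR adjusted p = 0.000611). MT2A stood at 0.39 ± 0.17 (edgeR adjusted p = 0.0979) and MT2B at 0.08 ± 0.18, and neither passed, though MT2A did in a fit of these 4 libraries alone (edgeR adjusted p = 0.00467). Of all genes tested, 26.7% were called in Col-0 (2745 higher and 2505 lower, or 2121 and 3671 by library size alone).

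In dxo1 the response to ABA was called for MT1C alone, while 7.68% of genes tested were called. It had 139 and 132 CPM with ABA, against 284 and 191 in NT, a log2 fold change of -0.81 ± 0.18 (edgeR adjusted p = 0.00621). That call was lost without dxo1 NT replicate 1 (-0.50, adjusted p = 0.168). MT3 stood at -0.41 ± 0.20 (edgeR adjusted p = 0.295), or at -0.83 without dxo1 ABA replicate 2 (adjusted p = 0.00315). MT2A stood at -0.10 ± 0.18 and MT2B at 0.23 ± 0.17, both without a call.

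The difference between the ABA responses was tested as an interaction. MT1C was the only member to pass: its log2 response was 1.57 ± 0.26 less negative in dxo1 than in Col-0 (edgeR adjusted p = 0.000698), and this call held without any of the 8 libraries, at 1.31 to 1.89. For MT3 the interaction was 0.64 ± 0.28 (edgeR adjusted p = 0.177), and 0.97 without dxo1 ABA replicate 1 (adjusted p = 0.00456). MT2A stood at -0.50 ± 0.25 and MT2B at 0.14 ± 0.25. Of all genes tested, 8.92% had a called interaction and 4.26% a positive one (836 positive and 917 negative, or 1188 and 720 by library size alone).

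**Figure D5:**
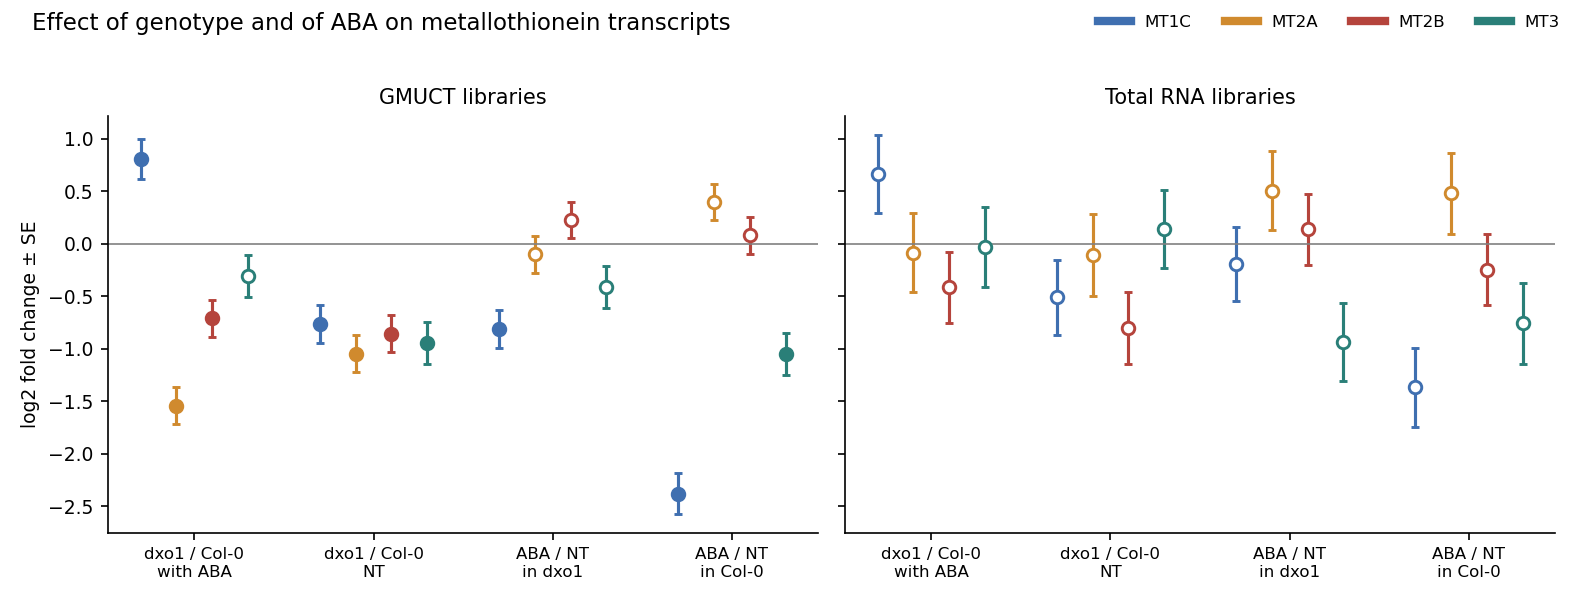
Log2 fold change (vertical axis, ± SE) of MT1C, MT2A, MT2B and MT3 for dxo1 over Col-0 with ABA and in NT, and for ABA over NT in dxo1 and in Col-0, in GMUCT libraries (left) and total RNA libraries (right), with filled points for an edgeR adjusted p below 0.05. Calls appear only in the GMUCT panel, where MT1C runs from -2.38 for ABA in Col-0 to 0.81 for dxo1 over Col-0 with ABA.

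In total RNA no member passed in any of the 5 comparisons, where edgeR called 0.0403% of 4965 genes for dxo1 over Col-0 with ABA, 0.0604% for the same in NT, 0.725% for ABA in dxo1, 0.443% for ABA in Col-0 and 0% for the interaction. These backgrounds depend on the fit: over the alternatives the number of genes called ranged from 0 to 54 for dxo1 over Col-0 with ABA (2 as reported), 0 to 128 in NT (3), 1 to 107 for ABA in dxo1 (36), 20 to 265 for ABA in Col-0 (22) and 0 to 8 for the interaction (0). MT1C had 18.0 and 20.1 CPM in Col-0 ABA total RNA, against 40.3 and 58.2 in Col-0 NT, groups that do not overlap. The same held for 48.9% of genes tested (23.0% with both ABA libraries lower). It also held for all 4 counted members, with MT2A higher under ABA. The log2 fold change of MT1C was -1.37 ± 0.38 (edgeR adjusted p = 0.175). In a fit of these 4 libraries alone, which called 265 genes against 22 as reported, its edgeR adjusted p was 0.0122. In dxo1 MT1C had 29.8 and 28.9 CPM with ABA, against 28.2 and 40.4 in NT, a log2 fold change of -0.20 ± 0.35. Its total RNA interaction was 1.17 ± 0.52 (edgeR adjusted p = 0.839). MT2B had 63.0 and 75.6 CPM in dxo1 NT, against 122 and 118 in Col-0 NT, a log2 fold change of -0.80 ± 0.34 (edgeR adjusted p = 0.33).

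Set against total RNA, the GMUCT changes of the members did not pass as one contrast. MT2A had the largest value among the 4 for dxo1 over Col-0 with ABA, -1.48 ± 0.46 (edgeR adjusted p = 0.139), which passed in the DESeq2 Wald test (adjusted p = 0.0146) and without dxo1 ABA total RNA replicate 1 (-1.82, adjusted p = 0.00523). In NT the values were -1.24 ± 0.48 for MT3 and -1.06 ± 0.48 for MT2A. For ABA in Col-0 MT1C stood at -1.14 ± 0.43 (edgeR adjusted p = 0.239, and 0.0407 in a fit of these groups alone). Few genes passed in these contrasts: 0.563% for dxo1 over Col-0 with ABA, 0.19% for the same in NT, 0.139% for ABA in dxo1 and 0.625% for ABA in Col-0. Whether the GMUCT differences of the members reflect more than their total RNA levels was not resolved at this depth.

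Across the 8 GMUCT libraries MT2A and MT2B varied together (Pearson r = 0.849 of log2 CPM), as did MT1C and MT3 (r = 0.705), while the other pairs lay between -0.16 and 0.56. These values describe 8 libraries of 4 conditions and share the same library scaling. Among 11444 nuclear genes that averaged 10 CPM or more, the pattern most like that of MT1C was found in CVL1 (r = 0.994), GLR3.4, a glutamate receptor-like channel (r = 0.988), and VSR7, a vacuolar sorting receptor (r = 0.987). For MT2A these were the senescence-associated gene SAG20 (r = 0.997), CEP2, a cysteine proteinase (r = 0.99), and AT5G53440 (r = 0.987). For MT2B they were the photosystem genes PSBR (r = 0.989) and PSAO (r = 0.981), with AT5G24610 (r = 0.985), and for MT3 AT3G57790 (r = 0.97), AT3G26590 (r = 0.968) and AT5G64120 (r = 0.967). By rank (Spearman's rho) the genes named for MT2A and MT2B were not among the top 3. There, 17 to 91 genes lay above those of MT2A, and 64 to 453 above those of MT2B.

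The remaining metallothionein genes were scarce. MT4B (AT2G23240), which encodes a seed-type metallothionein, had 13 and 19 GMUCT counts in dxo1 ABA, against 1 and 1 in dxo1 NT, and 78 and 65 in Col-0 ABA, against 2 and 0 in Col-0 NT. Per gene count, the ratio of ABA to NT was 24.4 in dxo1 (95% exact counting interval 6.22 to 210) and 123 in Col-0 (33.5 to 1028). Each ratio rests on 2 NT counts in all, and the genotype by ABA interaction of MT4B was tested and not called. With ABA, MT4B was lower in dxo1 than in Col-0 by -2.995 ± 0.35 on the log2 scale (edgeR adjusted p = 3.6e-06). MT4A (AT2G42000) had 0 to 2 counts in any library.

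MT1B (AT5G56795), whose annotated reading frame holds 0 cysteine codons in RefSeq and whose exon stretches of 50 bases were 89.0% unique, had 37 and 40 GMUCT counts in dxo1 NT, against 111 and 110 in Col-0 NT. Its log2 fold change of dxo1 over Col-0 in NT was -2.08 ± 0.25 (edgeR adjusted p = 1.81e-05), and that of ABA over NT in Col-0 was -1.27 ± 0.28 (edgeR adjusted p = 0.00188). Like MT1C it had a called interaction, 1.38 ± 0.41 (edgeR adjusted p = 0.0403).

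Other genes of metal handling gave a mixed picture in GMUCT. For dxo1 over Col-0 with ABA, 5 of 18 copper genes were higher and 2 lower, beside 30.7% of all genes called in either direction, among them the copper importer COPT1 at 0.97 ± 0.15, the transporter COPT5 at 0.75 ± 0.15 and the plastocyanin gene PETE2 at -1.34 ± 0.17. In NT, where 20.5% of all genes were called, 0 copper genes were higher and 1 was lower, PETE2 at -1.33 ± 0.17. With ABA, 1 copper gene was higher and 1 lower in dxo1 (7.68% of all genes called), and 1 was higher and 4 lower in Col-0 (26.7%). The importer COPT2 was lower in both, at -1.99 ± 0.27 in dxo1 and -2.81 ± 0.32 in Col-0.

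Of the zinc and nicotianamine genes, 9 of 11 were tested. For dxo1 over Col-0, 2 were higher and 1 lower with ABA (30.7% of all genes called), and 1 higher and 1 lower in NT (20.5%). With ABA, 0 were higher and 1 lower in dxo1 (7.68%), and 3 higher and 2 lower in Col-0 (26.7%). NAS3, which encodes a nicotianamine synthase, stood at -0.71 ± 0.17 in dxo1 and at -1.92 ± 0.20 in Col-0, with an interaction of 1.20 ± 0.26 (edgeR adjusted p = 0.00594). PCS1, the phytochelatin synthase gene, was called higher with ABA in both genotypes, at 0.68 ± 0.16 in dxo1 and 0.83 ± 0.17 in Col-0. It was the only 1 of 3 tested genes of phytochelatin and glutathione synthesis to pass there (7.68% and 26.7% of all genes called). For dxo1 over Col-0, 1 of these 3 genes was higher in NT (20.5%) and 0 were called with ABA (30.7%). In NAD over total RNA only PETE2 in dxo1 NT passed (1.26 ± 0.38) among the 16 tested genes of these 3 lists. Of all genes tested there, 11.4% were called in dxo1 ABA, 13.5% in dxo1 NT, 2.92% in Col-0 ABA and 4.27% in Col-0 NT.

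The 300 bases before each annotated start were searched on both strands for ACGTG, the core of the ABA response element, for GTAC, the core bound by the copper regulator SPL7, and for TGCNCNC, the metal response element as defined in animals. For MT1A the annotated start is the first coding base, since 0 of its exon bases lie outside the coding sequence. The 70 bases of its window nearest that start lie in an exon of AT1G07590. ACGTG was found before MT1A and MT2B, in each as 1 palindrome that matches on both strands, and before MT4B. It was not found before MT1C, MT2A or MT3. It occurs in 25.6% of 27443 windows of this length. GTAC was found before MT3 alone among the members (39.7% of windows) and TGCNCNC before MT2B alone (10.3%). The MT2B window, at 507245 to 507544 on chromosome 5 and read on the minus strand, is shown with both matches in capitals, since MT2B is the counted member that holds the ABA core.
MT2B: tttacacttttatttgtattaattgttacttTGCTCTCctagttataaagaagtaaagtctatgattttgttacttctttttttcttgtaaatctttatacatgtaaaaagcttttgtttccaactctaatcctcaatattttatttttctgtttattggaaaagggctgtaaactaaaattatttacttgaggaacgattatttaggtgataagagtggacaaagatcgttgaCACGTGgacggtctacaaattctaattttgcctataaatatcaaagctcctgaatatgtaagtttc

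A match is a description of letters and not a binding site.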

How the data were processed

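The deposited files hold whole-number read counts per gene, 1 file for each of 24 libraries, without normalization. Per the submitters' processing notes, the authors used cutadapt, STAR 2.4.2a and HTSeq on TAIR10, and per the labels the reads were strand-specific, single-end and 50 nt. Summary lines that name no gene were left out of library sizes; reads listed there as not uniquely aligned were 23.9% to 37.0% in GMUCT, 81.1% to 94.4% in NAD and 91.3% to 96.6% in total RNA.

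Counts were fitted in edgeR 4.0.16 (R 4.3.3) on whole tables: NAD with total RNA, total RNA, GMUCT, and GMUCT with total RNA. Low counts were removed by filterByExpr (min.count 10), TMM gave the scaling, quasi-likelihood F tests used the group labels as the only terms, and p-values were adjusted by the Benjamini-Hochberg method over all genes tested at 0.05. SE is |log2 fold change| divided by the root of F, an approximation. Levels of NAD and total RNA come from 1 fit and those of GMUCT from another, so they share no scale. Alternatives included DESeq2 1.42.0.

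The members, gene lists, neighbours and motifs were chosen with earlier results of these data known, and the 3 genes most like each member by Pearson r. List genes are named by smallest p, up to 3 a list. The floral genes and RBCS1A were chosen after the data were seen. RefSeq annotation of TAIR10.1 matched 28009 of 28775 identifiers (97.3%) and gave all names, positions and sequences. Counting intervals cover counting error only. Same-numbered replicates share only a number and were not paired.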

Additional observations from a re-analysis of the deposited data

Results flagged for a closer look

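For 6 of the 36 tested metallothionein and metal-handling genes (16.7%) the response to ABA in GMUCT libraries differed between dxo1 and Col-0 by a test of the difference itself, the genotype by ABA interaction (edgeR quasi-likelihood test, 2 libraries in each of 4 groups). The log2 interaction, as the ABA response in dxo1 minus that in Col-0, was 1.57 ± 0.26 for MT1C (edgeR adjusted p = 0.000698) and 1.38 ± 0.41 for MT1B (edgeR adjusted p = 0.0403). It was 1.20 ± 0.26 for NAS3 (edgeR adjusted p = 0.00594), 0.99 ± 0.27 for NAS1, a second nicotianamine synthase (edgeR adjusted p = 0.0283), 0.88 ± 0.21 for the copper transporter COPT5 (edgeR adjusted p = 0.0125) and 0.71 ± 0.22 for COPT1 (edgeR adjusted p = 0.0446). All 6 values are positive, while of all 19644 genes tested 8.92% had a called interaction, 4.26% a called positive interaction and 4.67% a called negative one. The gene lists were chosen with earlier results of these data known, so these shares are a description and not independent support. Among the 6 genes, fits without 1 library were made for MT1C alone. Groups of 2 do not allow a test for outlying samples.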

How the results depend on the processing

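The 4 counted members gave 1400 values under the alternatives, of which 1311 kept their direction and their side of the threshold, 60 lost a call, 11 gained one and 18 changed sign; the 1311 include 43 changes of sign by less than 1 SE in values never called. DESeq2 size factors, nuclear protein-coding genes alone and the replicate block changed no call of a member. Same-numbered samples share only a number, and their deviations correlated at -0.12 to 0.27 over the 4 sets of fits, and the block moved no count of called members, which stayed at 2, 4, 2 and 2 in NAD over total RNA. Over all genes it did move counts in total RNA, to 22 called for dxo1 over Col-0 with ABA, against 2 without it, 82 in NT, against 3, 97 for ABA in dxo1, against 36, and 47 for ABA in Col-0, against 22.

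Scaling by library size alone gave 0 called members in NAD over total RNA in all 4 conditions. It turned MT1C to -0.52 and MT2A to -0.78 in Col-0 ABA, and the ABA change of the NAD ratio in Col-0 to -0.82 for MT1C and -0.47 for MT2B. In GMUCT over total RNA it gave called positive values of MT2B, 1.52 in dxo1 ABA, 1.38 in dxo1 NT, 1.43 in Col-0 ABA and 1.35 in Col-0 NT, and MT1C 2.19 in dxo1 ABA and 1.63 in Col-0 ABA; the change for MT2B between genotypes with ABA became 0.095. The median gene moved too, as given above for the NAD and GMUCT ratios in each condition. MT2B in NAD over total RNA stayed at 2.78 ± 0.863 in dxo1 ABA and 2.50 ± 0.855 in dxo1 NT, with a larger SE than by TMM. Without the low-count filter, NAD over total RNA gave 1 called member in dxo1 NT and 0 in Col-0 ABA. Fitting only the groups compared gave 1 in dxo1 ABA and 1 in Col-0 ABA, 1 for ABA in Col-0 total RNA, and 1 for the ABA change of GMUCT over total RNA in Col-0; it also ended the NAD calls of MT3 in dxo1 ABA, dxo1 NT and Col-0 ABA. The DESeq2 Wald test gave 1 for the change of GMUCT over total RNA between genotypes with ABA. By Spearman's rho, 4 of the 12 most similar genes were again among the top 3 of their member with ties counted. They were GLR3.4 and VSR7 for MT1C, and AT3G57790 and AT3G26590 for MT3. Sets of up to 155 genes shared the same rho. The cause of these changes was not tested.

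Without 1 library each, the number of called members ranged in NAD over total RNA from 1 to 2 in dxo1 ABA, 1 to 2 in dxo1 NT, 0 to 1 in Col-0 ABA and 0 to 1 in Col-0 NT. In GMUCT it ranged from 1 to 4 for dxo1 over Col-0 with ABA, 0 to 2 for ABA in dxo1 and 1 to 2 for the interaction, and for the change of GMUCT over total RNA between genotypes with ABA from 0 to 1. Signs differed for MT1C in the ABA change of the NAD ratio in Col-0 (-0.53 to 0.29) and in GMUCT over total RNA in dxo1 NT (-0.25 to 0.49), and for MT3 between genotypes in NT total RNA (-0.24 to 0.44) and in GMUCT with ABA (-0.73 to 0.025). They also differed in GMUCT for ABA in dxo1, for MT2A (-0.29 to 0.11) and MT2B (-0.10 to 0.49), and for MT2B in the interaction (-0.18 to 0.41). None of these sign changes without 1 library passed the test. An interaction uses all groups, so it has no fit of its groups alone.

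NAD and total RNA libraries held 6 to 490 counts of each of the 4 counted members, which limits every comparison with them.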
